A study of Mus musculus with 5 samples.

Results

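The aminoacyl-tRNA synthetases are the enzymes that join each amino acid to its transfer RNA, and 36 of their genes were followed among the 38166 features of the transcript tables, 20 encoding cytosolic enzymes or subunits and 16 encoding mitochondrial ones. They were selected on an earlier result of the same libraries, the low value of Lars2, the mitochondrial leucyl-tRNA synthetase, in the LncHSC-1 knockdown library against control, and the other genes were added by enzyme class, to see whether that low value was shared by the class. The Lars2 value in that contrast is therefore a description, and the comparison of LncHSC-1 with LncHSC-2 uses the same LncHSC-1 library.

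Polyadenylated RNA of C57BL/6 mice was sequenced in 5 libraries. In 3 of them the source was KSL cells, the c-Kit+Sca-1+Lin- bone marrow cells among which blood stem and early progenitor cells are found: 1 library carried the LncHSC-1 knockdown virus, 1 the LncHSC-2 knockdown virus and 1 the control knockdown virus. All 3 groups started from Sca-1+ cells of mice injected with 5-fluorouracil (5-FU), a drug that kills dividing cells, and all were transduced with a GFP-marked retrovirus, kept for 2 days in medium with cytokines, SCF at 10 ng/ml among them, and sorted as GFP+ KSL cells, so no library shows untreated or uncultured stem cells. The other 2 libraries were technical replicates of 1 sample of Gr1+ bone marrow granulocytes from 12-month-old mice. The B cell samples of the study and the level of the RNAs targeted by the viruses were not analysed here.

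Each synthetase recognises 1 amino acid and the tRNAs that carry it, and the charged tRNAs feed the ribosome. Cytosolic and mitochondrial ribosomes draw on separate sets of enzymes, most of them encoded by separate nuclear genes, with the mitochondrial form marked by the ending 2 in its symbol; Gars and Kars each encode both forms. In mammals, several cytosolic synthetases sit together in the multi-synthetase complex on the scaffold proteins Aimp1, Aimp2 and Eef1e1, and genes of many cytosolic synthetases are known targets of Atf4, the transcription factor of the amino acid response.

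Levels are FPKM, read numbers divided by feature length and by library size as scaled by the authors, which allows levels of different genes to be compared. The KSL libraries held an estimated 24144908 reads for LncHSC-1, 19934654 for LncHSC-2 and 21018312 for control. With 1 library per group there is no replicate check and no test of any difference between conditions. Differences are log2 ratios of FPKM + 1, followed in brackets by the exact 95% interval that counting error alone allows, and such an interval compares libraries, not conditions. Ratios were read for features with a mean of at least 5 FPKM over the KSL libraries, which kept 9153 features and 34 of the 36 synthetases; Ears2 and Wars2 lay below. KSL markers were present in the KSL libraries, with Ly6a (Sca-1) at 1211 FPKM in LncHSC-1, 1025 in LncHSC-2 and 1010 in control and Kit at 59.1 in LncHSC-1, 62.0 in LncHSC-2 and 67.6 in control FPKM in LncHSC-1, LncHSC-2 and control, and the granulocytes held the neutrophil gene S100a8 at 55377 and 57405 FPKM. In the LncHSC-1 library all 6 B lineage markers were above control, with a summed level of 73.7 FPKM, against 43.8 in LncHSC-2 and 42.0 in control. Of these, Ebf1 and Pax5 lay below the floor, and the interval of Ebf1, −0.42 to 1.17, takes in 0. Among all 9153 features at the floor, 4010 were above control in this library. All 4 matched monocyte markers were above control as well, summing to 43.1 FPKM in LncHSC-1, against 31.6 in LncHSC-2 and 34.6 in control. The largest difference was that of Mpeg1, at 24.3 FPKM in LncHSC-1, 15.9 in LncHSC-2 and 17.7 in control. Csf1r and Emr1 lay below the floor, and the intervals of Csf1r, Emr1 and Cd68 in LncHSC-1 against control take in 0. The part of B lineage or monocyte transcripts in the values below was not tested. The 5 T and NK cell markers summed to 56.1 FPKM in LncHSC-1, 52.4 in LncHSC-2 and 56.7 in control, nearly all of it Nkg7, at 55.2 FPKM in LncHSC-1, 51.8 in LncHSC-2 and 56.0 in control. Cd4 was at 0.577 FPKM in LncHSC-1, 0.441 in LncHSC-2 and 0.377 in control, and Cd3d, Cd3e and Klrb1c were between 0 and 0.220 FPKM in these libraries.

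In KSL cells the cytosolic synthetases were abundant transcripts and the mitochondrial ones were moderate. The cytosolic median was 68.9 FPKM in LncHSC-1, 67.3 in LncHSC-2 and 66.3 in control, and the mitochondrial median was 11.3 FPKM in LncHSC-1, 11.6 in LncHSC-2 and 11.1 in control. Over all features at the floor the median was 19.4 FPKM in LncHSC-1, 19.7 in LncHSC-2 and 19.6 in control. The cytosolic median was 6.09 times the mitochondrial one in LncHSC-1, 5.82 times in LncHSC-2 and 5.99 times in control. The spacing of the classes was thus nearly the same in the 3 libraries. Bulk RNA cannot tell fewer cells of a type from less RNA per cell, which holds for every level given here.

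**Figure D1:**
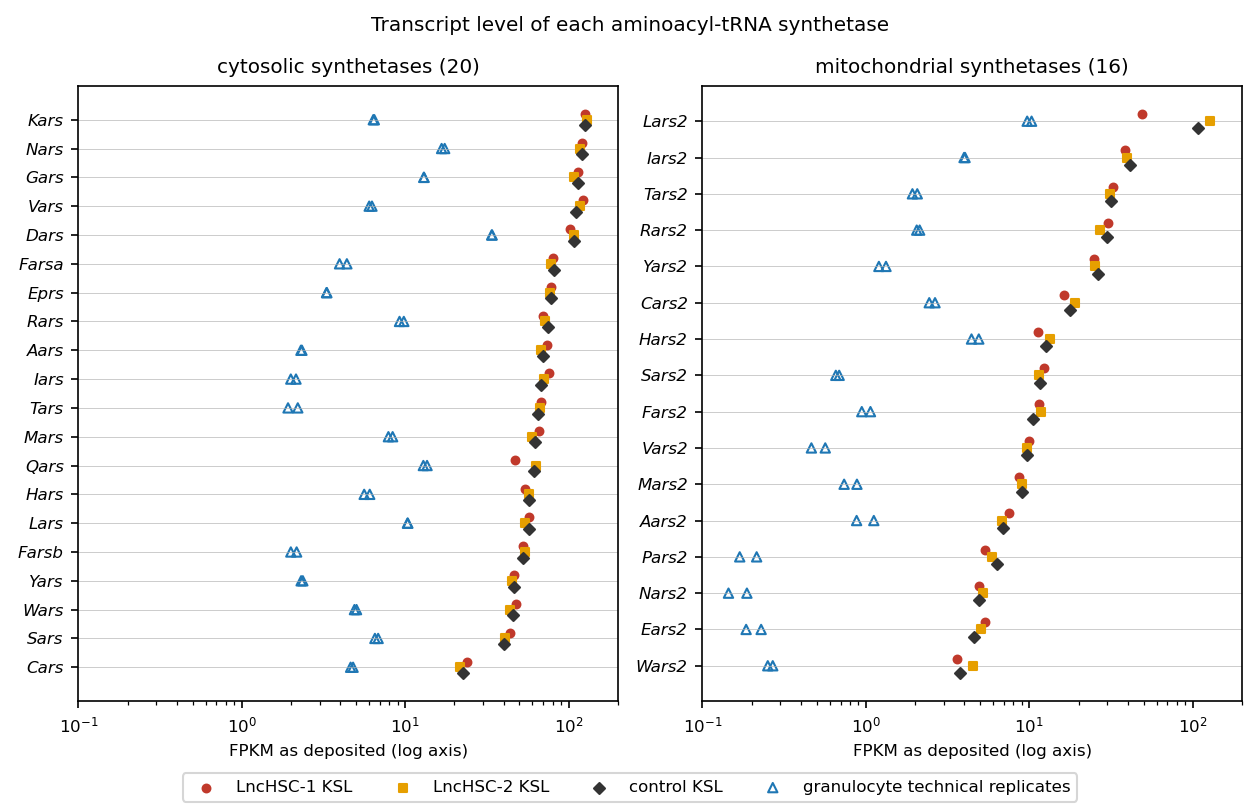
Level of each of the 36 synthetases in FPKM on a log axis, cytosolic on the left and mitochondrial on the right, ordered by the control library; filled symbols are the 3 KSL libraries and open triangles the 2 granulocyte technical replicates. For nearly every gene the KSL symbols lie together, and Lars2, at 49.2 FPKM in LncHSC-1, 128 in LncHSC-2 and 107 in control, and Qars, at 46.6 in LncHSC-1, 63.0 in LncHSC-2 and 61.3 in control, are those whose LncHSC-1 symbol stands apart.

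Among cytosolic enzymes, the highest was Kars, the lysyl-tRNA synthetase, at 126 FPKM in LncHSC-1, 130 in LncHSC-2 and 126 in control. Nars, for asparagine, followed at 121 FPKM in LncHSC-1, 118 in LncHSC-2 and 120 in control. Gars, for glycine, was at 114 FPKM in LncHSC-1, 108 in LncHSC-2 and 113 in control, much like Vars, for valine, at 122 FPKM in LncHSC-1, 118 in LncHSC-2 and 111 in control. Dars, for aspartate, was at 102 FPKM in LncHSC-1, 108 in LncHSC-2 and 108 in control. These 5 lay within a narrow band, and with 1 library per group their order is not resolved. Cars, for cysteine, was the lowest cytosolic member at 23.9 FPKM in LncHSC-1, 21.6 in LncHSC-2 and 22.4 in control, well below Sars, for serine, at 43.8 FPKM in LncHSC-1, 40.8 in LncHSC-2 and 40.4 in control. The 2 subunits of the cytosolic phenylalanyl enzyme were at unequal levels, Farsa at 80.5 FPKM in LncHSC-1, 77.6 in LncHSC-2 and 81.5 in control and Farsb at 52.3 FPKM in LncHSC-1, 53.7 in LncHSC-2 and 52.5 in control. Farsa was above Farsb in each library. The feature of Aars, for alanine, is merged with the exosome gene Exosc6 in the tables, so its 73.2 FPKM in LncHSC-1, 67.7 in LncHSC-2 and 69.5 in control cannot be split between these genes. The other 10 cytosolic members lay between 45.4 FPKM (Wars, for tryptophan) and 78.2 FPKM (Eprs, for glutamate and proline) in control.

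Of the mitochondrial enzymes, Lars2 stood far above its class outside the LncHSC-1 library, at 128 FPKM in LncHSC-2 and 107 in control, where it was 6th among all 36 members. Iars2, for isoleucine, was next at 38.7 FPKM in LncHSC-1, 39.4 in LncHSC-2 and 41.2 in control. Tars2, for threonine, was at 32.4 FPKM in LncHSC-1, 31.3 in LncHSC-2 and 31.4 in control, close to Rars2, for arginine, at 30.4 FPKM in LncHSC-1, 26.9 in LncHSC-2 and 29.7 in control. Yars2, for tyrosine, was at 24.8 FPKM in LncHSC-1, 25.1 in LncHSC-2 and 26.4 in control. Below these enzymes came Cars2, for cysteine, at 16.2 FPKM in LncHSC-1, 19.0 in LncHSC-2 and 17.6 in control. Another 7 mitochondrial members had control levels between 6.38 FPKM (Pars2, for proline) and 12.7 FPKM (Hars2, for histidine). The lowest were Nars2, for asparagine, at 4.94 FPKM in LncHSC-1, 5.18 in LncHSC-2 and 4.91 in control, Ears2, for glutamate, at 5.36 FPKM in LncHSC-1, 5.06 in LncHSC-2 and 4.57 in control, and Wars2, for tryptophan, at 3.59 FPKM in LncHSC-1, 4.51 in LncHSC-2 and 3.79 in control. These last values lie close together and give no order.

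Lars2 (chromosome 9, 123276058 to 123371782 in mm9, the build of the files) held 49.2 FPKM in the LncHSC-1 library, against 128 FPKM in LncHSC-2 and 107 FPKM in control. The LncHSC-1 library was the low one, and its level was less than that of each of the other libraries. On the log2 scale the LncHSC-1 value was −1.10 against control (−1.17 to −1.07), from an estimated 5407 reads in LncHSC-1 and 10076 in control. Only 35 of the 9153 features at the floor had a lower ratio in that contrast. Against LncHSC-2 the LncHSC-1 value was −1.36 (−1.43 to −1.34), with 44 features lower. The LncHSC-2 library was above control by 0.26 (0.22 to 0.30).

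No other synthetase shared the low Lars2 value at a comparable size. In LncHSC-1 against control, 1 of 34 members, Lars2 itself, lay past 1.5-fold, where 2.23% of all 9153 features did. At the smaller size of 1.2-fold there were 2 of 34, Lars2 and Qars, beside 8.77% of all features. In LncHSC-2 against control 0 of 34 members passed either size, beside 1.77% of all features at 1.5-fold and 5.77% at 1.2-fold; Lars2 lay just inside the smaller limit. In LncHSC-1 against LncHSC-2, Lars2 was again the 1 member past 1.5-fold, beside 2.31% of all features. Lars2 and Qars were the 2 members at the floor past 1.2-fold, beside 8.4%. The shares of members are of the order of the background at these sizes, so the counts single out genes, not the class; the first contrast is also the one on which the genes were selected.

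With Lars2 left out, the 13 other mitochondrial synthetases at the floor had a median log2 ratio of 0.01 in LncHSC-1 against control, with 7 higher and 6 lower and a range of −0.22 to 0.11. In LncHSC-2 against control the same genes had a median of −0.01 and a range of −0.14 to 0.14. The 20 cytosolic synthetases had a median of 0.00 in LncHSC-1 against control, with 12 higher and 8 lower, and of −0.03 in LncHSC-2 against control, with 9 higher and 11 lower. The median over all features was −0.02 in LncHSC-1 and 0.00 in LncHSC-2. Against control, both classes therefore sat at the level of the typical feature in both knockdown libraries. In LncHSC-1 against LncHSC-2 the cytosolic median was 0.05, with 14 higher and 6 lower. Over all features that median was −0.03, with 3699 of 9153 higher. The 13 mitochondrial genes had a median of −0.02 there, with 5 higher and 8 lower. The median size of the ratio, whatever its sign, was 0.07 for the 34 members and 0.09 for all features in LncHSC-1, and 0.05 for the members and 0.07 for all features in LncHSC-2. The members below the floor, Ears2 and Wars2, had log2 ratios against control of 0.19 and −0.06 in LncHSC-1 and of 0.12 and 0.20 in LncHSC-2. In LncHSC-1 against LncHSC-2, Ears2 was at 0.07 (−0.18 to 0.35). Wars2 was at −0.26 (−0.52 to −0.14) there, past 1.2-fold. Without Lars2, the summed level of the 33 other members at the floor was 1680 FPKM in LncHSC-1, 1666 in LncHSC-2 and 1677 in control.

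**Figure D2:**
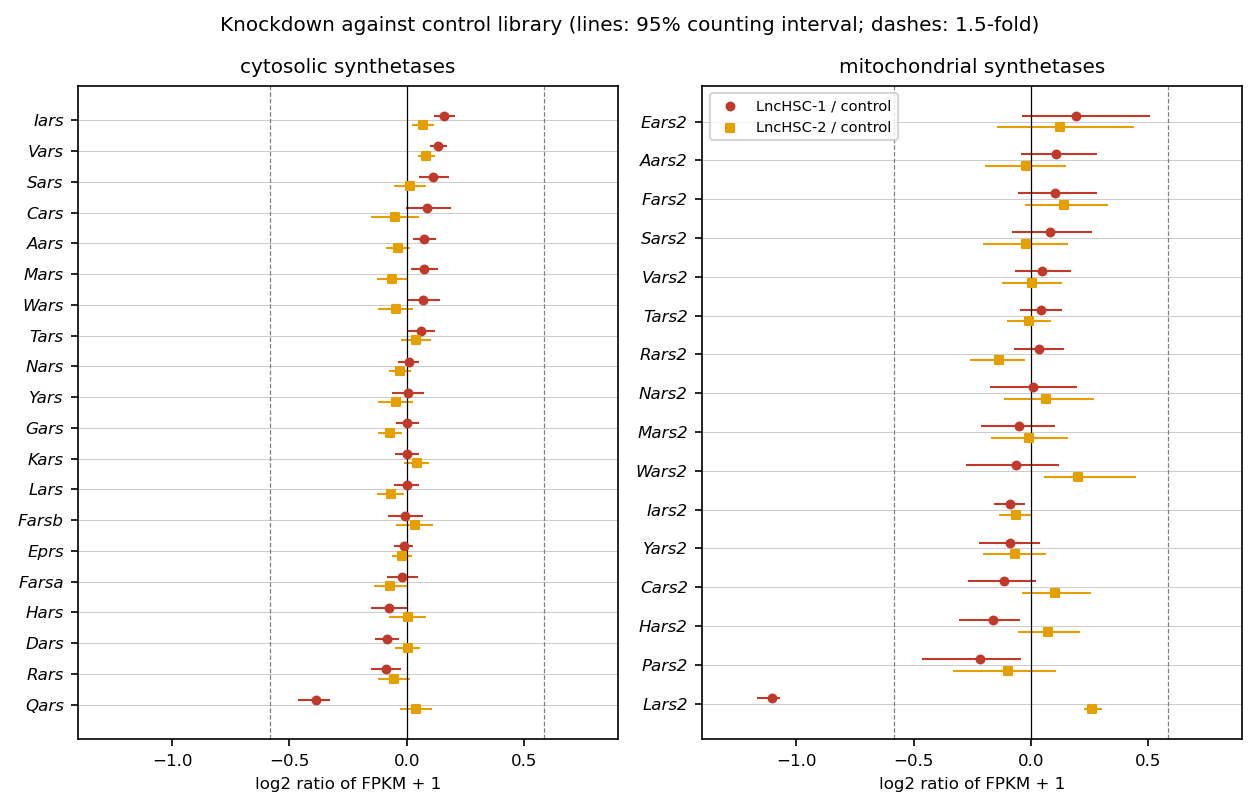
Log2 ratio of FPKM + 1 of each synthetase in the LncHSC-1 library (circles) and the LncHSC-2 library (squares) against the same control library, with lines for the 95% counting interval and dashes at 1.5-fold. Lars2 in LncHSC-1, at −1.10, is the single point beyond the dashes, and Qars, at −0.39, is the next lowest.

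Qars, the cytosolic glutaminyl-tRNA synthetase (chromosome 9, 108410336 to 108418272 in mm9), was the second member to stand apart. It held 46.6 FPKM in the LncHSC-1 library, against 63.0 in LncHSC-2 and 61.3 in control. As for Lars2, LncHSC-1 was the low library. The log2 ratio was −0.39 in LncHSC-1 against control (−0.46 to −0.33), 0.04 in LncHSC-2 against control and −0.43 in LncHSC-1 against LncHSC-2. There were 132 features lower than Qars in the first of these contrasts and 137 in the last. Qars has no mitochondrial partner, since mammalian mitochondria make glutaminyl-tRNA by converting glutamyl-tRNA with an amidotransferase. Of the subunits of that enzyme, named for this role, Qrsl1 had log2 ratios of −0.02 in LncHSC-1 and 0.10 in LncHSC-2 against control, and Gatc had −0.05 in LncHSC-1 and −0.17 in LncHSC-2.

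The furthest members on the higher side were small by comparison. Iars, for isoleucine, was at 75.5 FPKM in LncHSC-1, 70.9 in LncHSC-2 and 67.5 in control, a log2 ratio of 0.16 (0.12 to 0.20) in LncHSC-1 and 0.07 (0.02 to 0.12) in LncHSC-2 against control. Vars gave 0.13 (0.10 to 0.17) in LncHSC-1 and 0.08 (0.05 to 0.12) in LncHSC-2. Sars gave 0.11 (0.05 to 0.18) in LncHSC-1 and 0.01 (−0.06 to 0.08) in LncHSC-2. On the lower side, after Lars2 and Qars, came Pars2 at −0.22 (−0.47 to −0.04), from 5.35 FPKM in LncHSC-1, 5.89 in LncHSC-2 and 6.38 in control, and Hars2 at −0.16 (−0.31 to −0.05), from 11.2 FPKM in LncHSC-1, 13.4 in LncHSC-2 and 12.7 in control. The interval of Pars2 in LncHSC-2, −0.33 to 0.11, takes in 0. At levels near 5 FPKM the counting intervals are wide, and smaller differences of those genes are not detectable at this depth.

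Enzymes of the multi-synthetase complex lay on both sides of control. Of its 8 enzymes, Qars was lowest in LncHSC-1 and Iars highest, and the others, Dars, Eprs, Kars, Lars, Mars and Rars, lay between −0.09 and 0.07 against control. The median of the 8 was −0.01 in LncHSC-1 and −0.01 in LncHSC-2. The scaffold genes were near control as well: Aimp1 was at 75.6 FPKM in LncHSC-1, 82.5 in LncHSC-2 and 78.8 in control, Aimp2 at 47.8 in LncHSC-1, 51.1 in LncHSC-2 and 49.0 in control, and Eef1e1 at 53.9 in LncHSC-1, 54.4 in LncHSC-2 and 56.0 in control, and their median log2 ratio was −0.05 in LncHSC-1 and 0.06 in LncHSC-2. Gars and Kars, the genes that serve both compartments, had log2 ratios of 0.00 and 0.00 in LncHSC-1, and of −0.07 and 0.04 in LncHSC-2, against control.

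Setting each mitochondrial gene against its cytosolic partner for the same amino acid placed Lars2 apart in level as well. The Lars2 to Lars ratio of FPKM was 0.866 in LncHSC-1, 2.37 in LncHSC-2 and 1.88 in control. In LncHSC-2 and control it was the 1 pair of 16 in which the mitochondrial gene was the higher, and in LncHSC-1 there were 0 such pairs. The partner Lars itself, the cytosolic leucyl-tRNA synthetase, was level at 56.8 FPKM in LncHSC-1, 54.2 in LncHSC-2 and 56.9 in control. The next pair was Cars2 to Cars at 0.678 in LncHSC-1, 0.879 in LncHSC-2 and 0.786 in control. The lowest was Nars2 to Nars, at 0.0410 in LncHSC-1, 0.0441 in LncHSC-2 and 0.0409 in control. The median pair was at 0.175 in LncHSC-1, 0.193 in LncHSC-2 and 0.184 in control, so a typical mitochondrial synthetase was far less abundant than its partner in each library. Farsa, 1 of the 2 subunit genes, stood for phenylalanine, and Eprs, which joins both glutamate and proline, served as partner of Ears2 and of Pars2, so those 2 pairs share a gene.

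The Lars2 locus holds a second feature. The unnamed feature HAG_042880 is listed with the same interval of chromosome 9 as Lars2. Mars and Ddit3 also share a listed interval, so such an interval need not be the span of each feature. In control the count per FPKM, which rises with feature length, was 13.8 for HAG_042880 and 102 for Lars2. HAG_042880 is thus the shorter feature, with an estimated 6590 reads in control, against 10076 for Lars2. HAG_042880 held 205 FPKM in LncHSC-1, against 611 in LncHSC-2 and 514 in control. It had the same order of libraries as Lars2, with log2 ratios of −1.32 in LncHSC-1 and 0.25 in LncHSC-2 against control. How the authors' counting divided reads between these overlapping features was not stated in the labels or headers, so both values are uncertain in level. When the estimated reads of the pair were summed, a choice made after seeing the data, the locus held 8471 reads in LncHSC-1, 18792 in LncHSC-2 and 16666 in control. The log2 ratio of the sum was −1.19 (−1.23 to −1.15) in LncHSC-1 against control and 0.25 (0.22 to 0.28) in LncHSC-2 against control. Both features were low in LncHSC-1 on their own, so a low sum was given in advance and is no separate result. The sum cannot show how low Lars2 itself would be under another division of the reads.

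The ribosomal RNA precursor feature Rn45s was low in the same library as Lars2. It held 109 FPKM in LncHSC-1, against 493 in LncHSC-2 and 470 in control, with log2 ratios against control of −2.10 (−2.13 to −2.08) in LncHSC-1 and 0.07 (0.05 to 0.08) in LncHSC-2. LncHSC-1 was again the low library, while Rn45s in LncHSC-2 was nearer to control than Lars2 was. The RNA was selected for polyA tails, which ribosomal RNA lacks, so the feature does not give the ribosomal RNA content of these libraries' cells. In the mouse transcript annotation the 3894-base mRNA of Lars2 shares stretches of its 3′ UTR with other transcripts, 97 bases at 94.8% and 50 bases at 96.0% identity with AA474408 and 72 bases at 98.6% with the antisense transcript Gm15564, all beyond the end of the coding sequence at base 2908. The part of ribosomal RNA carry-over or of these shared stretches in the Lars2 value was not tested.

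The 5 features at the floor whose pair of ratios against control lay nearest to that of Lars2, by Euclidean distance over both knockdown libraries, were all without a gene name. HNG_034767 was the nearest, at a distance of 0.06, with 24.0 FPKM in LncHSC-1, 65.7 in LncHSC-2 and 52.4 in control. HNG_024632, at a distance of 0.13, held 1565 FPKM in LncHSC-1, 4560 in LncHSC-2 and 3632 in control. HNG_039696, at 0.21, held 234 FPKM in LncHSC-1, 644 in LncHSC-2 and 472 in control, and HAG_042880 followed at 0.22. These 4 had LncHSC-1 low and LncHSC-2 above control, an order that follows from choosing them by the same ratios and is no separate result. HNG_040099, at 0.15, rests on 3 reads in LncHSC-1, 7 in LncHSC-2 and 7 in control and gives little information. The nearest features with a gene symbol or clone name, AK019067 and Dynlt3, added after the values were seen, were both at a distance of 0.52.

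**Figure D3:**
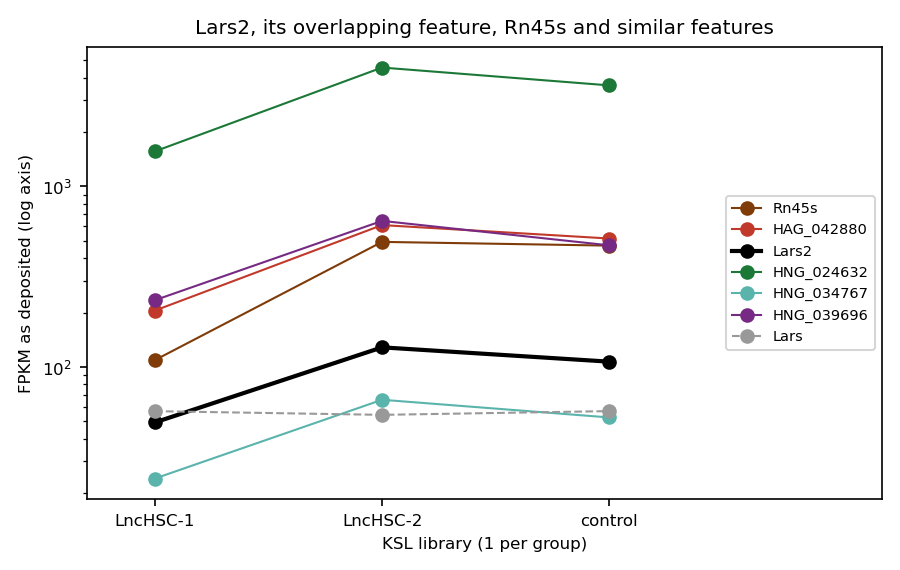
FPKM on a log axis in the LncHSC-1, LncHSC-2 and control libraries for Lars2 (thick line), the overlapping feature HAG_042880, Rn45s, 3 unnamed features with similar ratios and, dashed, the cytosolic partner Lars; lines join the values of 1 feature. All but Lars, at 56.8 FPKM in LncHSC-1, 54.2 in LncHSC-2 and 56.9 in control, are lowest in the LncHSC-1 library. The 3 unnamed features with similar ratios were chosen for those ratios, so their low LncHSC-1 value is no separate result.

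The amino acid response is read here through promoters and targets, because synthetase genes are among the targets of Atf4. A script searched the promoters of RefSeq (assembly GRCm38.p6, 250 bases before to 50 after each start) for the letters TGATGNAA, the core of the composite element bound by Atf4 and C/EBP proteins, on both strands (TTNCATCA on the other). Promoters were found for 27 of the 36 members, 13 cytosolic and 14 mitochondrial. The motif lay in the promoters of 5 of the 27 genes (18.5%), beside 4.51% of all 27025 genes and 3.97% of all 32851 promoters. All 5 were cytosolic, and 0 of 14 mitochondrial promoters held it. Windows of 30 bases from 4 of these promoters are shown because they carry this difference between the classes, on the strand of the gene and with the motif in capitals.
Gars: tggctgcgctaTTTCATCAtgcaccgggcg
Iars: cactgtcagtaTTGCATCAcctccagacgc
Tars: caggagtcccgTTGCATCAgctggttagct
Yars: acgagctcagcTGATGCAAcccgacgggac

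These windows lie at chr6:55037960-55037989 on the plus strand for Gars, chr13:49682126-49682155 on the plus strand for Iars, chr15:11399655-11399684 on the minus strand for Tars and chr4:129189895-129189924 on the plus strand for Yars (GRCm38.p6). The first base of the motif, in the direction of the gene, is 30 bases before the start in Gars and 15 before in Tars, and 7 and 3 bases after it in Iars and Yars. Of the amino acid response genes searched in the same way, Asns, Chac1 and Trib3 held the motif, and Atf5 and Ddit3 did not. A match describes letters only and is not a bound site.

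The 250 bases before the start of Lars2 (chr9:123366677-123366926 on the plus strand, GRCm38.p6), the member that stood apart, hold no match, and neither do the 50 after it.
Lars2: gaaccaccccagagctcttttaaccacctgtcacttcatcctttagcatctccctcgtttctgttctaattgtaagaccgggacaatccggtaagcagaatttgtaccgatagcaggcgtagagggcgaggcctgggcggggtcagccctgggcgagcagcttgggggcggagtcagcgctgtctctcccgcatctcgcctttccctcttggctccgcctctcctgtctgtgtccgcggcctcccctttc

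Of the 4 genes shown with the motif, Gars had a log2 ratio against control of 0.00 in LncHSC-1 and −0.07 in LncHSC-2, Iars 0.16 in LncHSC-1 and 0.07 in LncHSC-2, Tars 0.06 in LncHSC-1 and 0.04 in LncHSC-2, and Yars 0.01 in LncHSC-1 and −0.05 in LncHSC-2. The 8 cytosolic genes whose promoter held none ranged from −0.39 (Qars) to 0.11 in LncHSC-1 and from −0.07 to 0.04 in LncHSC-2. The ranges overlap in both libraries.

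Other genes of the amino acid response were a little higher in the LncHSC-1 library. Of 20 listed genes at the floor 16 were above control, with a median log2 ratio of 0.11, where 4010 of all 9153 features were above control. In the list 5 genes lay past 1.2-fold higher, beside 5.13% of all features past that size in that direction. In LncHSC-2 the median was 0.03, with 12 above control and 0 past 1.2-fold. Atf5, a transcription factor of this response, held 9.25 FPKM in LncHSC-1, against 6.44 in LncHSC-2 and 5.94 in control, a log2 ratio of 0.56 (0.41 to 0.86) in LncHSC-1. Nupr1, a stress-induced chromatin protein, was at 45.3 FPKM in LncHSC-1, 34.3 in LncHSC-2 and 33.5 in control (0.43, 0.25 to 0.62). Trib3, a pseudokinase induced by Atf4, was at 5.91 FPKM in LncHSC-1, 4.77 in LncHSC-2 and 4.36 in control (0.37, 0.18 to 0.69), and Ddit3, the transcription factor CHOP, at 15.6 FPKM in LncHSC-1, 10.4 in LncHSC-2 and 12.0 in control (0.36, 0.14 to 0.64). In these 4 genes LncHSC-1 was the high library, and Cebpb (0.28), named because it completes the 5, was alike. Atf4 itself was at 150 FPKM in LncHSC-1, 140 in LncHSC-2 and 141 in control, and Asns, the asparagine synthetase, at 49.1 FPKM in LncHSC-1, 43.1 in LncHSC-2 and 50.9 in control, so neither showed that order at a comparable size; both were named after their values were seen. The cytosolic synthetases, by contrast, had a median of 0.00 in the LncHSC-1 library, as given above. The listed intervals of Ddit3 and Mars overlap, as do those of Rab3gap2 and Iars2 and of C77080 and Yars. Reads of those members may thus be shared. Rab3gap2, the most abundant of these neighbours in reads, was at 16.1 FPKM in LncHSC-1, 17.4 in LncHSC-2 and 17.2 in control.

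Genes that work beside the synthetases were mostly close to control. Of 13 mitochondrial translation factors at the floor 10 were lower in LncHSC-1 than in control, where 5135 of all 9153 features were lower, and the median was −0.13 in LncHSC-1 and −0.03 in LncHSC-2. The furthest was Mtrf1l, a peptide release factor, at 4.62 FPKM in LncHSC-1, 5.26 in LncHSC-2 and 6.09 in control (−0.34 in LncHSC-1). Mtfmt, which formylates the initiator tRNA, was at 8.44 FPKM in LncHSC-1, 8.48 in LncHSC-2 and 10.2 in control (−0.24 in both knockdown libraries). Mtrf1, another release factor, was at −0.23 in LncHSC-1, and on the other side stood the elongation factor Tsfm at 0.17 in LncHSC-1 and 0.23 in LncHSC-2. Mtrf1l was the 1 gene of the 13 past 1.2-fold in LncHSC-1, a share near the 8.77% of all features past that size in either direction (3.64% lower). The 12 genes of mitochondrial tRNA maturation had a median of −0.02 in both, with Trmt61b, a tRNA methyltransferase, the furthest at 7.45 FPKM in LncHSC-1, 11.5 in LncHSC-2 and 10.0 in control (−0.39 in LncHSC-1, 0.18 in LncHSC-2). The 7 genes listed for cytosolic elongation, among them the scaffold gene Eef1e1 already counted above, had medians of −0.09 in LncHSC-1 and 0.04 in LncHSC-2. Eif5a was lowest in log2 ratio in LncHSC-1, at 793 FPKM in LncHSC-1, 1007 in LncHSC-2 and 997 in control.

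Nuclear and cytosolic tRNA processing genes had a median of 0.00 in LncHSC-1 and 0.04 in LncHSC-2 over 20 genes. Tsen34, part of the endonuclease that splices tRNA, was the exception in both knockdown libraries, at 15.0 FPKM in LncHSC-1 and 16.3 in LncHSC-2, against 7.80 in control. Its log2 ratio was 0.86 (0.72 to 1.16) in LncHSC-1 and 0.97 (0.84 to 1.29) in LncHSC-2, and both share the control library. Clp1, the RNA kinase that acts with this endonuclease, was at 18.3 FPKM in LncHSC-1, 24.3 in LncHSC-2 and 23.4 in control (−0.34 in LncHSC-1).

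**Figure D4:**
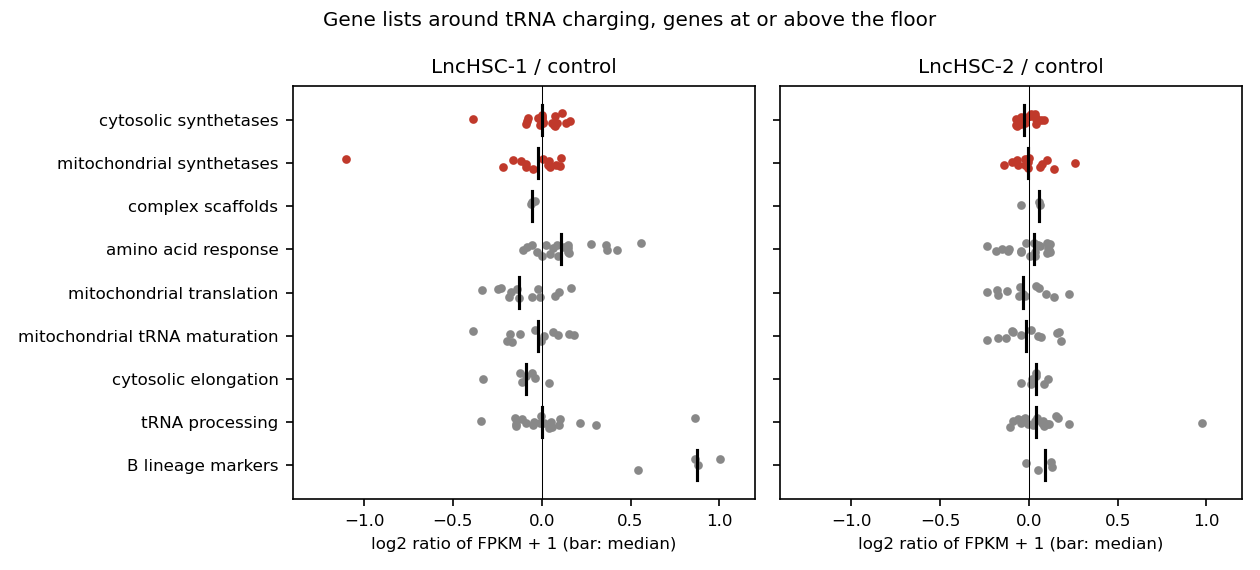
Log2 ratio of FPKM + 1 against control for each gene of 9 lists at or above the floor, LncHSC-1 on the left and LncHSC-2 on the right; each point is a gene and each bar the median of its list. The bars of both synthetase classes lie near 0 in both panels, the amino acid response sits at 0.11 in LncHSC-1, and the B lineage markers at 0.87.

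Granulocytes held the synthetases at lower FPKM values, but their tables were scaled separately from the KSL tables, so levels are set side by side and no fold is given. The cytosolic median was 5.99 FPKM over the mean of the technical replicates (n = 1), with 11 of 20 genes at 5 FPKM or more, and the mitochondrial median was 1.00 FPKM, with 1 of 16, Lars2, at 5 FPKM or more. All 20 cytosolic and 8 of 16 mitochondrial genes reached 1 FPKM. The classes kept their distance, with a ratio of medians of 5.98. Among the 34218 features common to both kinds of table, the median cytosolic gene stood at percentile 83.7 of the granulocytes and 96.3 of control KSL cells, and the median mitochondrial gene at percentile 70.7 of the granulocytes and 80.5 of control KSL cells. The technical replicates differed by between 1.00 times (Gars) and 1.30 times (Nars2).

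Dars, the aspartyl-tRNA synthetase, led in granulocytes at 34.0 and 33.8 FPKM in the replicates, followed by Nars at 16.7 and 17.4, Qars at 12.9 and 13.6 and Gars at 13.0 and 13.0. Lars was at 10.4 and 10.3 FPKM and Lars2 at 10.3 and 9.70 FPKM. The levels of Qars and Gars, and those of Lars and Lars2, overlap or nearly touch between replicates, whereas Dars stands clear. Lars2 was 6th of the 36 members in granulocytes, the place it holds in control KSL cells. The overlapping feature HAG_042880 was at 42.3 FPKM and Rn45s at 48.7 FPKM in granulocytes (means of the replicates).

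The order of the mitochondrial genes was much alike in granulocytes and control KSL cells, with a Spearman rho of 0.874 across 16 genes, and that of the cytosolic genes less so, with 0.308 across 20 genes. Levels in control KSL cells ran from 3.79 to 107 FPKM for mitochondrial genes and from 22.4 to 126 FPKM for cytosolic ones. The part of this narrower cytosolic span in the lower rho was not tested. These are descriptions across genes, which are not independent replicates, and the points share their libraries. Iars and Tars differed most in place: they were 24th and 25th of the 36 in granulocytes at 2.07 and 2.06 FPKM, and 11th and 12th in control KSL cells. Hars2 and Sars differed the other way. Hars2 was 15th in granulocytes and 27th in control KSL cells, and Sars was 9th in granulocytes and 21st in control KSL cells. Within pairs, Iars2 was above Iars in granulocytes, with ratios of 1.88 and 2.00 in the replicates, and below it in control KSL cells, at 0.609. Hars2 to Hars was at 0.800 in granulocytes and 0.223 in control KSL cells, and Aars2 to Aars at 0.431 in granulocytes and 0.0999 in control KSL cells. The Lars2 to Lars ratio was 0.968 in granulocytes and 1.88 in control KSL cells, with the Lars2 level uncertain because of the overlapping feature HAG_042880.

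**Figure D5:**
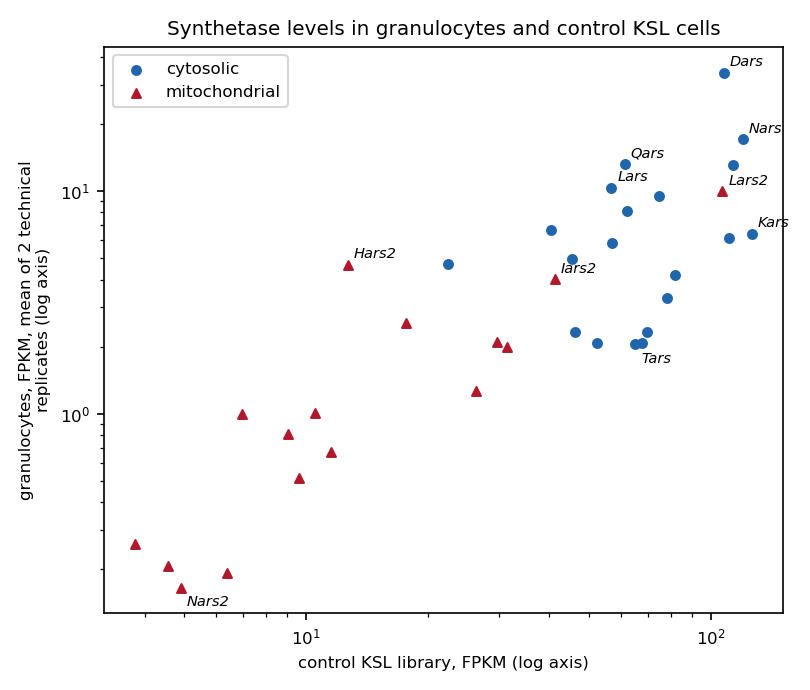
Mean FPKM of the 2 granulocyte technical replicates against FPKM of the control KSL library for the 36 synthetases, both on log axes; circles are cytosolic and triangles mitochondrial genes. Lars2, at 10.0 FPKM in granulocytes and 107 in control KSL cells, lies among the cytosolic genes, and Dars, at 33.9 FPKM, is the highest in granulocytes.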

How the data were processed

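RNA sequencing values of 5 libraries were taken as deposited. Build mm9 and the program DESeq come from the submitters' processing notes. The aligner, counter and annotation release were not given in the sources used here. As the headers show, every table holds FPKM and count columns per feature. The FPKM values deposited by the authors were the main measure; their median-of-ratios factors were 0.996 for LncHSC-1, 1.00 for LncHSC-2 and 1.00 for control, so they were not rescaled. The count columns deposited for KSL cells are scaled reads, here called a signal, because 91.7% to 92.2% of values no larger than 20 reads fell within 0.1 read of a whole multiple of 1 step. The step was 0.924 in LncHSC-1, 1.03 in LncHSC-2 and 1.08 in control, and dividing by it gave the estimated reads. The granulocyte count columns as deposited, whole numbers made from scaled values, were treated as a score and gave only totals of 40414961 and 40394825.

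Log2 ratios used a pseudocount of 1 FPKM, which understates differences of low genes, and a floor of 5 FPKM on the mean of the KSL libraries. Intervals are exact Clopper-Pearson 95% intervals of the ratio of estimated reads, computed without the pseudocount, so they need not centre on the ratio, and cover counting error only, since reads without molecular identifiers are not independent molecules. Sizes of 1.5-fold and 1.2-fold were used, with no count model and no p-value. Granulocyte replicates were averaged and count as n = 1. Nothing in the labels ties a KSL library to another by replicate.

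The members and gene lists were chosen with earlier results of these data known. The genes named are all members, up to 4 genes per other list furthest from control, features overlapping Lars2, the ribosomal RNA list (1 of 7 symbols matched) and the 5 features most like Lars2; any further gene is marked in the text as a later choice. Transcript sequences of GENCODE were compared with blastn 2.17.0, word size 20 and E-value limit 1e-10; promoters are those of RefSeq, and 1 promoter window is not reported here. Calculations used Python 3.11.15, numpy 2.4.6, pandas 2.3.3, scipy 1.17.1 and matplotlib 3.10.9, and the scripts were tested on simulated data.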

Additional observations from a re-analysis of the deposited data

Results flagged for a closer look

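For 2 synthetases the counting intervals of the LncHSC-1 and LncHSC-2 ratios against control lay on opposite sides of 0. For Lars2 the log2 ratio was −1.10 in LncHSC-1 and 0.26 in LncHSC-2. For Mars, the cytosolic methionyl-tRNA synthetase, it was 0.074 (65.5 FPKM, against 62.2 in control) in LncHSC-1 and −0.062 (59.5 FPKM, against 62.2 in control) in LncHSC-2. The upper bound of the Mars interval in LncHSC-2, and the lower bound in LncHSC-1, at 0.00 and 0.02, are close to 0. Both ratios use the same control library and each group has 1 library, so the difference between the knockdowns was not tested. Mars is listed at the same position as Ddit3, which was at 15.6 FPKM in LncHSC-1, 10.4 in LncHSC-2 and 12.0 in control.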

How the results depend on the processing

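Other settings moved 10 of 90 recomputed values and left 80 within their counting error or within 1.5 times. The sign changed for 2 mitochondrial medians near 0, within counting error: 0.01 without Lars2 in LncHSC-1 against control (−0.02 with it), and 0.11 with the deposited count columns as they stand in LncHSC-1 against LncHSC-2 (−0.03 with FPKM). The Lars2 log2 ratio of LncHSC-1 against control was −1.05 with a pseudocount of 5 and −1.19 with the reads of Lars2 and HAG_042880 summed (added after seeing the data). For LncHSC-1 against LncHSC-2 these values were −1.30 and −1.44. The deposited count columns as they stand gave −1.24 for Lars2 in LncHSC-1 against LncHSC-2 and 0.12 for Lars2 in LncHSC-2 against control, and cytosolic medians of 0.20 in LncHSC-1 against LncHSC-2 and −0.17 in LncHSC-2 against control; their median-of-ratios factors, 1.03 for LncHSC-1, 0.938 for LncHSC-2 and 1.04 for control, place the typical feature of LncHSC-2 lower by construction. At 1 FPKM in place of 5, the number of synthetases reaching the threshold in granulocytes was 20 cytosolic and 8 mitochondrial. Leaving out either granulocyte replicate gave 11 to 12 cytosolic genes at 5 FPKM, and 1 mitochondrial gene in each case. No paired analysis was possible because each KSL group has 1 library and no test was run. Depth limits the genes near 5 FPKM.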
